A study of Homo sapiens with 6 samples.

Results

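Hyaluronan synthases, hyaluronidases and hyaluronan receptors were examined as a set of 10 genes in RNA sequencing profiles of NCI-H1975, an established human non-small cell lung cancer line. The genes were taken by symbol, through their Ensembl identifiers, from a deposited table of 60960 features, and all 10 were found: HAS1, HAS2 and HAS3 (synthases), HYAL1, HYAL2, HYAL3 and CEMIP (breakdown), and CD44, HMMR and LYVE1 (receptors). Of the 6 libraries, 3 carry the label siNC (a control small interfering RNA) and 3 the label siGFPT2 (a small interfering RNA against GFPT2). No label gives a dose or a time after transfection, and the stated purpose was to compare gene expression between the labels. Almonertinib, EGF and EGFR knockdown appear in the extraction text, but no treatment label of these libraries carries them. The labels do not state separate cultures for the replicates. The p-values therefore reflect library-to-library spread alone, possibly technical.

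Hyaluronan is a long, unsulfated chain of alternating glucuronic acid and N-acetylglucosamine. The HAS enzymes sit in the plasma membrane, take UDP-glucuronic acid and UDP-GlcNAc from the cytosol and push the growing chain out of the cell, so the polymer draws on the same UDP-GlcNAc that the hexosamine pathway makes and whose first step GFPT1 and GFPT2 catalyse. Hyaluronidases cut the chain at the cell surface and in lysosomes, and receptors such as CD44 bind it and link it to the cytoskeleton. Only mRNA was measured here, neither the polymer nor the enzymes.

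Levels are given in FPKM, counted fragments divided by gene length in kilobases and by the library's total, a unit that allows genes of different length to be compared. Depth lay between 21899321 and 27234880 counted fragments per library. The targeted gene GFPT2 had 10.1, 9.30 and 8.28 FPKM under siNC against 8.94, 7.58 and 8.72 under siGFPT2, so the groups overlapped (log2 fold change -0.13 ± 0.13 SE, 95% interval -0.43 to 0.17; exact two-sided permutation p = 0.4, with 0.1 the smallest possible). A loss of the target was not detectable, and siGFPT2 is used in what follows as the name of a label. Two-sided tests used limma on log2(FPKM + 0.1) over the 12896 features whose mean reached 1 FPKM, a scale that understates the change of low genes, with Benjamini-Hochberg adjustment over all of them. Libraries siNC 3 and siGFPT2 2 stood apart from the remaining 4: the slope of a library's log2 deviations on log2 gene length was -0.081 and -0.055 in them and between 0.027 and 0.048 in the others. Both were below the other 4 libraries in 35.4% of tested features, with a median gene length of 6847 bases, and above them in 29.8%, with a median length of 2795 bases. The epithelial identity of the line was visible in all libraries, with 6 of 6 epithelial keratin and adhesion markers at a mean of at least 1 FPKM and a summed level of 1428 to 2086 FPKM in siNC and 1480 to 1881 in siGFPT2.

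The hyaluronan genes did not differ detectably between the labels. Of the 10 genes, 7 reached a mean of 1 FPKM and were tested, and 0 of them passed an adjusted p of 0.05 in limma, against 0.0% of all tested features; 0 of 7 had an unadjusted p under 0.05, against 0.651% of all (without siNC 2, 1 of 7, HMMR), and 0 of 7 had groups that did not overlap, against 3.53% in either direction (2.16% with siGFPT2 higher). Their log2 fold changes ran from -0.08 for HYAL2 to 0.30 for HMMR, with a median of 0.002 beside 0.03 for all tested features, and 4 lay above 0 and 3 below. With each library centred on its median feature, 3 lay above 0 and 4 below, and the share of all tested features above 0 was 44.0% in place of 61.4%. The 95% interval of each of the 7 excluded a 2-fold change in either direction, as did those of 92.8% of all tested features. CD44 was by far the most abundant, HYAL2, HMMR and HAS3 formed a middle tier, HYAL3, HYAL1 and HAS2 a low tier, CEMIP lay just under 1 FPKM, and LYVE1 and HAS1 were near the limit of detection.

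**Figure D1:**
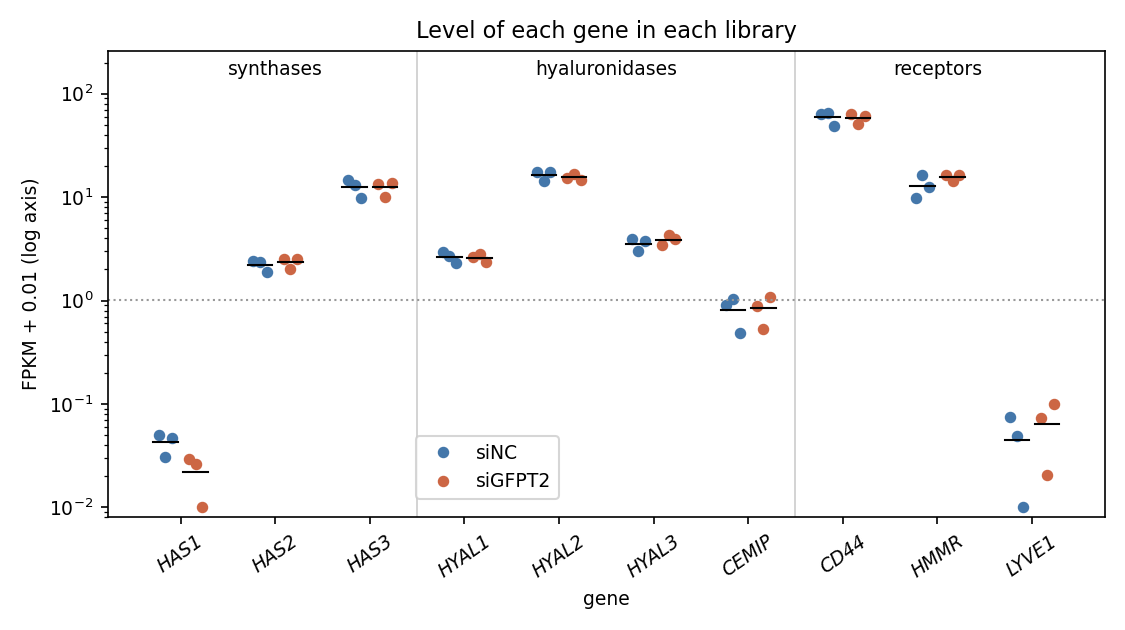
FPKM + 0.01 on a log axis for the 10 hyaluronan genes, with a point for each library (3 siNC, 3 siGFPT2) and a black line at the group mean; the dotted line marks 1 FPKM. CD44 lies between 48.7 and 64.9 FPKM in all libraries, and LYVE1 and HAS1 stay under 0.1 FPKM.

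The levels could be ordered at some steps and not at others. CD44 had a mean of 58.9 FPKM over the 6 libraries, 3.70 times that of HYAL2, with no overlap of ranges. HYAL2 (15.9 FPKM) and HMMR (14.2 FPKM) could not be ordered, since HYAL2 was higher in 3 of 6 libraries, and HMMR lay above HAS3 (12.4 FPKM) in 5 of 6 with overlapping ranges. HAS3 in turn exceeded HYAL3 (3.70 FPKM) 3.34 times in mean, without overlap. HYAL3 lay above HYAL1 (2.61 FPKM) in 6 of 6 libraries. Their ranges did not overlap, but the margin between 2.92 and 2.97 FPKM is smaller than the counting error of HYAL3 (about 7.63%). HYAL1 and HAS2 (2.27 FPKM) overlapped, with HYAL1 higher in 5 of 6. CEMIP (0.815 FPKM) was below HAS2 in all 6. Against all tested features, 94.9% had a lower mean than CD44, 78.9% a lower mean than HYAL2, 76.5% than HMMR, 73.3% than HAS3 and 23.7% than HAS2.

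Among the synthases, HAS3 supplied most of the mRNA. HAS3 (ENSG00000103044; chromosome 16, 69105564 to 69118719, plus strand, GENCODE 29 on GRCh38) encodes the isoenzyme known for making shorter chains. It was measured at 14.5, 12.9 and 9.77 FPKM in siNC libraries 1 to 3 and 13.5, 10.1 and 13.5 in siGFPT2 libraries 1 to 3, from 1244 to 1668 fragments. The low values were those of siNC 3 and siGFPT2 2, and the groups overlapped fully. The means were 12.4 ± 2.41 and 12.4 ± 1.98 FPKM (SD, n = 3 each), and the log2 fold change was 0.002 (95% interval -0.45 to 0.46; limma adjusted p = 0.9999). HAS3 made up 83.3% to 85.7% of the summed FPKM of the 3 synthases. It shares 365 exon bases (6.90% of its exons) with CHTF8 on the opposite strand, which had a mean of 0.296 FPKM over the 6 libraries. Strand use in counting is not stated, so fragments from these bases cannot be assigned.

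HAS2 (ENSG00000170961; chromosome 8, 121612116 to 121641390, minus strand), the synthase needed for the heart cushions of the embryo, stood at 2.39, 2.33 and 1.90 FPKM in siNC libraries 1 to 3 and 2.49, 2.01 and 2.53 in siGFPT2 libraries 1 to 3. Again siNC 3 and siGFPT2 2 were the lowest, and the groups overlapped. The means were 2.20 ± 0.268 and 2.34 ± 0.290 FPKM, with a log2 fold change of 0.08 (-0.30 to 0.47). Its antisense transcript HAS2-AS1, which shares 201 exon bases with it, lay between 0.247 and 0.332 FPKM. Whether strand was used in counting is not stated, so reads from the shared bases cannot be assigned. The ratio of HAS3 to HAS2 was 6.07, 5.56 and 5.15 in siNC and 5.41, 5.02 and 5.36 in siGFPT2, which overlap (exact two-sided permutation p = 0.4; 0.533 after Benjamini-Hochberg adjustment over the 4 ratios tested).

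HAS1 (ENSG00000105509; chromosome 19, 51713112 to 51723994, minus strand), the least active of the synthases in culture, rested on 2, 1 and 2 fragments in siNC and 1, 1 and 0 in siGFPT2. These are 0.0404, 0.0204 and 0.0365 FPKM against 0.0197, 0.0164 and 0, and 3 fragments, taken here as the limit for a count of 0, would be 0.0604 FPKM in siGFPT2 3. In FPKM the siNC libraries all lay above the siGFPT2 libraries, but siNC 2 and 2 of the siGFPT2 libraries held 1 fragment each. The exact two-sided 95% Poisson intervals overlap, from 0.242 to 7.22 for 2 fragments, from 0.0253 to 5.57 for 1 and from 0 to 3.69 for 0 (a two-sided bound, and so above the limit of 3 fragments), and no difference was detectable at this depth. Intervals and limits cover counting error only.

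The start region of HAS3 is printed because HAS3 is the dominant synthase. The window runs from 250 bases before to 50 bases after the RefSeq start (GRCh38.p14, chr16:69107290-69107589, plus strand), and capitals mark GGGCGG or its reverse complement CCGCCC (the SP1 box, in 45.0% of 35116 such windows) and CACGTG (the E-box, in 7.26%).
HAS3: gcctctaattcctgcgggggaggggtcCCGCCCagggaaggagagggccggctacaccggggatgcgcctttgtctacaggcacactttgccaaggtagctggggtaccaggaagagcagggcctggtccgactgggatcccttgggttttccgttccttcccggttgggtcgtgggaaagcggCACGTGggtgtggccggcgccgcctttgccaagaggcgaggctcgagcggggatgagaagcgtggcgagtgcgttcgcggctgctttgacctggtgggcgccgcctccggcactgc
It holds 1 SP1 box and 1 E-box, 67.0% GC, and no other motif searched. Both strands were searched for the NF-Y box CCAAT (in 34.6% of windows), the TATA box TATAAA (11.5%), the cell cycle element TTTGAA (15.2%) and the AP-1 site TGACTCA (4.95%) as well. A match describes the letters and is not evidence of binding, and a missing match says nothing about a factor.

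Of the enzymes that break hyaluronan down, HYAL2 was the most abundant. HYAL2 (ENSG00000068001; chromosome 3, 50317790 to 50322906, minus strand) encodes a hyaluronidase anchored at the cell surface by a glycolipid tail, which cuts long chains into intermediate ones. It stood at 17.4, 14.2 and 17.5 FPKM in siNC libraries 1 to 3 and 15.3, 16.6 and 14.6 in siGFPT2 libraries 1 to 3, from 1379 to 2003 fragments. The highest and the lowest library both belonged to siNC. The means were 16.4 ± 1.85 and 15.5 ± 1.06 FPKM (SD, n = 3 each), and the log2 fold change was -0.08 (-0.37 to 0.22). It made up 66.6% to 72.7% of the summed FPKM of HYAL1, HYAL2, HYAL3 and CEMIP.

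HYAL1 (ENSG00000114378; chromosome 3, 50299889 to 50312381, minus strand), the lysosomal enzyme that goes on to small fragments, stood at 2.92, 2.68 and 2.32 FPKM in siNC libraries 1 to 3 and 2.60, 2.82 and 2.34 in siGFPT2 libraries 1 to 3. Both groups spanned nearly the same range. The means were 2.64 ± 0.302 and 2.58 ± 0.242 FPKM and the log2 fold change was -0.03 (-0.37 to 0.32). HYAL3 (ENSG00000186792; chromosome 3, 50292831 to 50299468, minus strand), a paralog with little known activity of its own, stood at 3.88, 2.97 and 3.78 FPKM in siNC libraries 1 to 3 and 3.45, 4.26 and 3.89 in siGFPT2 libraries 1 to 3. Its lowest library was siNC 2 and its highest siGFPT2 2. The means were 3.54 ± 0.499 and 3.87 ± 0.406 FPKM, with a log2 fold change of 0.13 (-0.24 to 0.49).

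These hyaluronidase genes lie side by side on the minus strand of chromosome 3, and their counts are uncertain where exons overlap. HYAL3 shares 248 exon bases (12.2% of its exons) with NAA80 and 43 with IFRD2, and HYAL2 shares 509 (11.2%) with TUSC2, all on the same strand. NAA80 was at 9.17 ± 0.435 FPKM with siNC and 8.51 ± 1.07 with siGFPT2, and TUSC2 at 24.0 ± 4.18 and 23.3 ± 3.05. The ratio of HYAL2 to HYAL3 was 4.48, 4.79 and 4.63 in siNC and 4.43, 3.91 and 3.74 in siGFPT2. This was the only one of the 4 ratios tested whose groups did not overlap, although the margin between 4.43 and 4.48 is smaller than the counting error of HYAL3, whose 128 to 228 fragments give a coefficient of variation of about 7.63%. The exact two-sided permutation p was 0.1, the smallest that 3 against 3 allows, and 0.4 after adjustment over the 4 ratios. The ratio of HYAL2 to HYAL1 was 5.96, 5.32 and 7.55 in siNC and 5.88, 5.90 and 6.23 in siGFPT2, which overlap (exact permutation p = 0.8; adjusted 0.8).

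The start region of HYAL2 (chr3:50322696-50322995, minus strand, GRCh38.p14) is given as that of the dominant hyaluronidase and as a contrast to the others printed here, since it holds none of the 6 motifs searched and so has no capitals.
HYAL2: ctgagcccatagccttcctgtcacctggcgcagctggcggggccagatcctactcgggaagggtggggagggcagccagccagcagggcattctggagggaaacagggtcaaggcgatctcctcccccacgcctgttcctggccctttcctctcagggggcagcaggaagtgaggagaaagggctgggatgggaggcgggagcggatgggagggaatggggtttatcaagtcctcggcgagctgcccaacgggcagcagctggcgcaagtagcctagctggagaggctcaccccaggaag
Its GC content was 65.0%, against a median of 58.7% over all windows.

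CEMIP (ENSG00000103888; chromosome 15, 80779343 to 80951776, plus strand), which binds hyaluronan and mediates its depolymerisation in skin fibroblasts, was the most variable of the measurable genes. It shares 224 exon bases (2.94% of its exons) with MESD on the opposite strand, and MESD had a mean of 9.93 FPKM over the 6 libraries. Since strand use in counting is not stated, fragments from these bases cannot be assigned, and their part in the CEMIP values was not tested. CEMIP stood at 0.896, 1.03 and 0.471 FPKM in siNC libraries 1 to 3 and 0.884, 0.525 and 1.08 in siGFPT2 libraries 1 to 3, from 88 to 183 fragments. Values in siNC 3 and siGFPT2 2 were about as low as each other and below the other 4, which spanned 0.884 to 1.08. Its coefficient of variation over the 6 libraries was 31.6%, against 8.37% from counting alone. With a mean under 1 FPKM it was left out of the comparison above; in the same model over the features whose mean reached 0.1 FPKM its log2 fold change was 0.06 (-0.77 to 0.89; limma adjusted p = 0.99997). Without siNC 3 and siGFPT2 2 it was 0.02, and with each library's length slope in the model it was 0.28 ± 0.21 SE. CEMIP2, the related membrane protein that degrades hyaluronan at the cell surface, was higher at 1.89 ± 0.667 and 1.99 ± 0.412 FPKM and had the same low libraries, with 1.16 in siNC 3 and 1.51 in siGFPT2 2 against 2.05 to 2.46 in the others.

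Among the receptors, CD44 (ENSG00000026508; chromosome 11, 35138870 to 35232402, plus strand) dominated. CD44 is the main hyaluronan receptor of epithelial and tumour cells, spliced into many forms, and the table gives a single value for all of them. It stood at 64.2, 64.9 and 48.7 FPKM in siNC libraries 1 to 3 and 63.8, 50.6 and 61.1 in siGFPT2 libraries 1 to 3, from 11927 to 14476 fragments. The 4 high libraries lay within 61.1 to 64.9 FPKM regardless of label, and the low ones were siNC 3 and siGFPT2 2. Means were 59.3 ± 9.14 and 58.5 ± 6.98 FPKM (SD, n = 3 each), and the log2 fold change was -0.01 (-0.39 to 0.36; limma adjusted p = 0.9999). The coefficient of variation over the 6 libraries was 12.4%, against 0.855% from counting, so depth did not limit this comparison.

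CD44's start region (chr11:35138921-35139220, plus strand, GRCh38.p14) is shown because CD44 carried most of the receptor mRNA. The capitals mark the SP1 boxes GGGCGG and CCGCCC, and none of the other letters searched occurred.
CD44: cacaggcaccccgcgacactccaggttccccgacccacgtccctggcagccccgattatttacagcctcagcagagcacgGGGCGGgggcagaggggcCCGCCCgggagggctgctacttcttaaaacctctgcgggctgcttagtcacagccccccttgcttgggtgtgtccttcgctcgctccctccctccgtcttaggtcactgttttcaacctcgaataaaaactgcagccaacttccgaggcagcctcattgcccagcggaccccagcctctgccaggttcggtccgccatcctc
Both boxes lie upstream of the start, and 26.7% of all windows hold at least 2.

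HMMR had the largest difference of the 7 tested genes, which its spread did not separate from 0. HMMR (ENSG00000072571; chromosome 5, 163460203 to 163491945, plus strand), also called RHAMM, is a hyaluronan-binding protein that also works inside the cell on the mitotic spindle and is made mainly in dividing cells. It shares 113 exon bases (2.87% of its exons) with HMMR-AS1 on the opposite strand, and fragments from these bases cannot be assigned either. HMMR stood at 9.89, 16.3 and 12.4 FPKM in siNC libraries 1 to 3 and 16.2, 14.4 and 16.3 in siGFPT2 libraries 1 to 3, from 860 to 1543 fragments. The siGFPT2 libraries lay close together at the top of the range, while siNC 2 reached 16.3 FPKM as well, so the groups overlapped. Means were 12.9 ± 3.22 and 15.6 ± 1.05 FPKM, a log2 fold change of 0.30 (-0.14 to 0.75; limma unadjusted p = 0.151, adjusted p = 0.9999). Without siNC 1, the lowest library, it was 0.13, and without siNC 2 it was 0.49 with an unadjusted p of 0.0186 (limma adjusted p = 0.969). The ratio of CD44 to HMMR was 6.49, 3.98 and 3.91 in siNC and 3.94, 3.51 and 3.76 in siGFPT2, so siNC 1 alone stood high (exact permutation p = 0.2; adjusted 0.4); without siNC 1 the difference between the group means was -0.21 in place of -1.06.

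Most spindle and proliferation genes listed with HMMR were also low in siNC 1, with the length-shifted libraries set aside. Among siNC 1, siNC 2, siGFPT2 1 and siGFPT2 3, siNC 1 was the lowest for 7 of 9 spindle and proliferation genes, and for 43.8% of all tested features. These 7 included TOP2A, the topoisomerase that untangles DNA before mitosis (38.9 FPKM against 51.6 to 54.1), CENPF, a kinetochore protein (15.5 against 19.6 to 20.4), and BUB1, a spindle checkpoint kinase (19.2 against 22.4 to 24.0). TPX2, which activates AURKA on the spindle (73.9 FPKM), AURKA itself (44.8), BRCA1 (8.99) and MKI67 (43.7) made up the rest. Over all 6 libraries siNC 1 was the lowest for TPX2 and AURKA. Both siNC 3 and siGFPT2 2 were lower still than siNC 1 for TOP2A, CENPF, BUB1, BRCA1 and MKI67. HMMR itself was higher in siNC 3 (12.4 FPKM) and siGFPT2 2 (14.4) than in siNC 1 (9.89). The exceptions were PLK1, another mitotic kinase, which was highest in siNC 1 (58.7 FPKM against 51.7 to 57.3 in the others), and DYNLL1, a dynein light chain (58.0 FPKM, with siNC 2 lowest at 57.2).

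HMMR's start region (chr5:163460382-163460681, plus strand, GRCh38.p14) is printed because it differs from those of the other genes in its motif content. Capitals mark GGGCGG, the CCAAT box bound by NF-Y (CCAAT or its reverse complement ATTGG) and TTTGAA, the cell cycle genes homology region found upstream of many genes of G2 phase and mitosis.
HMMR: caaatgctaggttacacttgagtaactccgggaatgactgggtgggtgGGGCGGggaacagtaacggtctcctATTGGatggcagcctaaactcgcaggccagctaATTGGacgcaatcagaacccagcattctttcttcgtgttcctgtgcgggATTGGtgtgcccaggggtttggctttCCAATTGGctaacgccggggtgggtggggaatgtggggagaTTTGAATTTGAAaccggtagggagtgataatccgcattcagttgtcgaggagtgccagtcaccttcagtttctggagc
It holds 5 CCAAT boxes, counting CCAAT and ATTGG that overlap in one stretch, and 2 adjacent copies of TTTGAA just upstream of the start. Of all windows, 0.359% hold at least 5 CCAAT boxes and 2.27% at least 2 copies of TTTGAA on either strand. Of the 8 hyaluronan genes with a window in the RefSeq table, the CCAAT box occurred in HMMR alone, and TTTGAA in HMMR and, as TTCAAA, in HAS1. HAS2 and LYVE1 were not matched in that table.

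LYVE1 (ENSG00000133800; chromosome 11, 10556966 to 10611689, minus strand), the hyaluronan receptor of lymphatic vessels and some macrophages, was close to undetected. It rested on 5, 3 and 0 fragments in siNC (0.0643, 0.0390 and 0 FPKM) and 5, 1 and 7 in siGFPT2 (0.0626, 0.0104 and 0.0897 FPKM). The exact Poisson intervals overlap, from 2.81 to 14.4 for 7 fragments and from 1.62 to 11.7 for 5, and the same limit of 3 fragments would be 0.0348 FPKM in siNC 3. Endothelial markers were as low, with 0 of 6 at a mean of 1 FPKM and a summed level of 0.348 to 0.402 FPKM in siNC and 0.343 to 0.486 in siGFPT2. Of 8 leukocyte markers, CD14 alone reached 1 FPKM, and the sum was 2.18 to 3.30 and 2.33 to 2.77 FPKM. Traces of a few genes of other cell types were higher in siGFPT2 1 than in any other library: CD163 was at 0.568 FPKM against at most 0.0232, COL3A1 at 0.879 against at most 0.0200, and the hyaluronan scavenger receptor STAB1 at 0.312 against at most 0.102. Of the other leukocyte markers, LYZ (0.204 FPKM) and MRC1 (0.0594) were also highest there. CD14 was lowest there, at 1.87 FPKM against 2.00 to 3.20. CD68 and PTPRC were highest in siNC 1 and siNC 3, and CD3E was at 0 in siGFPT2 1. Of the fibroblast markers, COL1A1, COL1A2 and DCN were also highest in siGFPT2 1, but LUM and PDGFRA in siGFPT2 3 and PDGFRB in siNC 1. Of the endothelial markers, PECAM1 and VWF were highest in siGFPT2 1, PROX1 and FLT4 in siNC 1, and CDH5 and TEK were lowest in siGFPT2 1. The receptor STAB2 was also lowest in siGFPT2 1, at 0.0142 FPKM against 0.0317 to 0.0974. The part of such traces in the values of the hyaluronan genes was not tested.

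**Figure D2:**
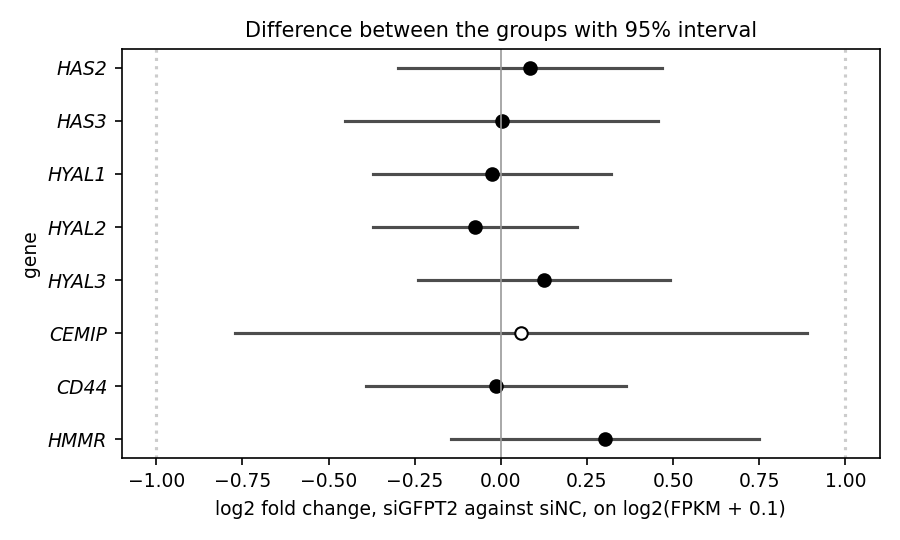
Log2 fold change of siGFPT2 against siNC on log2(FPKM + 0.1), with 95% intervals of the limma model, for the 8 hyaluronan genes with a mean of at least 0.1 FPKM; filled points come from the comparison over features of at least 1 FPKM, the open point (CEMIP) from that over at least 0.1 FPKM, and dotted lines mark a 2-fold change. Every interval includes 0, and the widest is that of CEMIP, from -0.77 to 0.89.

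Libraries siNC 3 and siGFPT2 2 were the lowest for several of the genes. CD44, HAS2 and HAS3 had their 2 lowest values there, as did CEMIP and, at its few fragments, LYVE1, and so did 35.4% of all tested features. HYAL1, HYAL2, HYAL3 and HMMR did not. Gene lengths used for CD44, HAS2, HAS3 and CEMIP were 9992, 4240, 5200 and 7621 bases, and those of the HYAL genes and HMMR 3085, 4421, 1967 and 3932 bases, so the longest genes were among the low ones, although HAS2 is shorter than HYAL2; the part of length in single genes was not tested. With both libraries left out, the log2 fold changes were -0.05 for CD44, 0.09 for HAS2, -0.02 for HAS3, -0.18 for HYAL1, -0.08 for HYAL2, 0.11 for HYAL3 and 0.35 for HMMR, and 0 of 7 passed.

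**Figure D3:**
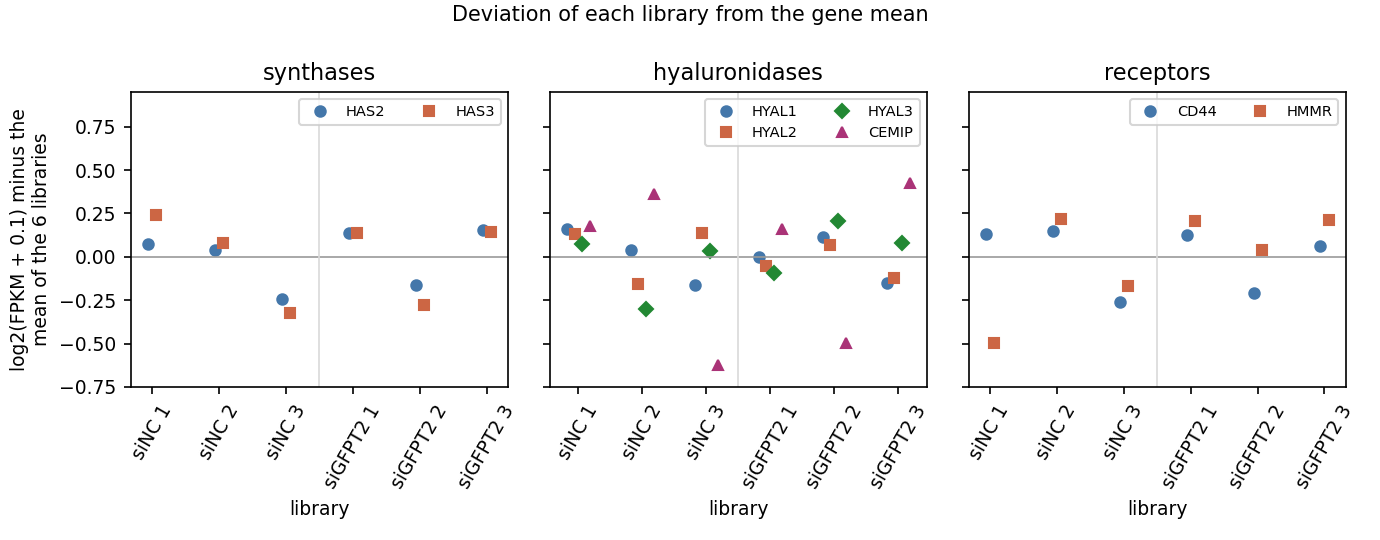
Deviation of each library's log2(FPKM + 0.1) from the mean of the 6 libraries, in panels for synthases, hyaluronidases and receptors, with a symbol for each gene. HAS2, HAS3, CEMIP and CD44 are lowest in siNC 3 and siGFPT2 2, while HMMR is lowest in siNC 1 (-0.50).

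For each tested gene, the 3 features most like it over the 6 libraries were found by Pearson's r of log2(FPKM + 0.1). For CD44 these were RNF207, ZBTB40 and CMIP (all r = 0.999), and 21.8% of the features compared had an r above 0.9 with CD44, so a high r is common for this pattern. HAS2 was most like GNE, which turns UDP-GlcNAc into a sialic acid precursor (r = 0.995), HEYL (0.994) and MXD1 (0.994), with 18.2% above 0.9. HAS3 was most like CABLES2, RDH13 (both 0.997) and CYP2S1 (0.996), with 16.7% above 0.9. HMMR was most like CCDC191 (0.998), HDGFL3 (0.994) and RCHY1 (0.992), with 3.18% above 0.9. HYAL2 paired with OAF (0.996), CHMP1A (0.995) and IRF5 (0.992), with 3.33% above 0.9. HYAL1 was closest to DHX58 (0.980), RADIL (0.976) and TCN2 (0.973), and HYAL3 to PEX11A (0.985), NAXD (0.983) and CNFN (0.980), with 0.341% and 0.316% above 0.9. All of these rest on 6 libraries that share the length pattern described above.

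Around the hyaluronan genes, 36 of 59 listed genes of precursor supply, degradation, binding and signalling (1 of them, HYALP1, not matched in the table) reached a mean of 1 FPKM, and 0 of them passed limma's test. Of the 36, 1 had an unadjusted p under 0.05 (0.651% of all tested features had). That count was 3 without siNC 3 and 0 without siNC 1, siNC 2, siGFPT2 2 or siGFPT2 3. Of the 36, 28 had a fold change above 0 and 8 below, and the median was 0.08 on the log2 scale, where 61.4% of all features lay above 0 with a median of 0.03. With libraries centred on their median feature the split was 24 and 12 and the median 0.03, and without siNC 3 it was 18 and 18 with a median of -0.002. Groups did not overlap for 3 of the 36, UGP2, PTX3 and TPX2, all with siGFPT2 higher. The share of all features was 3.53% in either direction and 2.16% with siGFPT2 higher.

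The mRNA of enzymes that supply both sugar nucleotides was present. UGDH, which makes UDP-glucuronic acid, was at 22.4 ± 2.70 FPKM with siNC and 23.7 ± 3.71 with siGFPT2, and UGP2, which makes its precursor UDP-glucose, at 7.73 ± 1.65 and 9.37 ± 0.150 (log2 0.30, -0.11 to 0.71), with siNC 1 lowest at 5.84 and a fold change of 0.11 without it. UAP1, which completes UDP-GlcNAc, was at 14.7 ± 0.839 and 16.2 ± 0.766 FPKM, and GNPNAT1, an earlier step, had 0.25 (-0.09 to 0.59).

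For further breakdown, the lysosomal exoglycosidase GUSB, which trims the fragments from their ends, was at 37.6 ± 3.22 and 36.0 ± 1.48 FPKM. It was more abundant than HYAL2 in every library. HEXA was at 1.19 ± 0.211 and 1.31 ± 0.0834 FPKM (log2 0.14, -0.28 to 0.56). The testis and sperm hyaluronidase SPAM1 was listed at 0 in all libraries, and HYAL4 was at most at 0.117 FPKM.

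Genes that bind or hold hyaluronan outside the cell were mostly under 1 FPKM. Of 8 matrix proteoglycans and link proteins, 3 reached 1 FPKM: VCAN, the large proteoglycan versican, at 5.07 ± 2.36 FPKM with siNC and 5.30 ± 1.90 with siGFPT2 (log2 0.12, -0.96 to 1.21), BCAN at 1.39 ± 0.426 and 1.49 ± 0.556 (0.08, -0.68 to 0.84) and the link protein HAPLN3 at 2.15 ± 0.235 and 2.17 ± 0.0398. VCAN was again low in siNC 3 (2.36 FPKM) and siGFPT2 2 (3.11) against 6.13 to 6.71 in the others. The heavy chains ITIH1 to ITIH5, of the family that TNFAIP6 transfers onto hyaluronan, were under 0.1 FPKM in all libraries, and TNFAIP6 was listed at 0 in 5 of 6.

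PTX3, a secreted pattern-recognition protein that helps crosslink hyaluronan with those heavy chains, was the gene of the list with the smallest p. It stood at 0.984, 1.21 and 1.21 FPKM in siNC libraries 1 to 3 and 1.36, 1.77 and 1.70 in siGFPT2 libraries 1 to 3, so every siGFPT2 library lay above every siNC library. The log2 fold change was 0.46 (0.04 to 0.89; limma unadjusted p = 0.0356, adjusted p = 0.9999), which does not pass over all features. Its unadjusted limma p was 0.0979 without siNC 1, 0.0535 without siNC 2, 0.114 without siGFPT2 2 and 0.115 without siGFPT2 3. The intracellular protein HABP4 was at 5.19 ± 1.00 and 5.10 ± 0.490 FPKM (-0.01, -0.40 to 0.38). Among further receptors LAYN, a C-type lectin that binds hyaluronan, was at 2.72 ± 0.202 and 2.87 ± 0.208 FPKM (0.07, -0.23 to 0.38), while STAB1, STAB2, TLR2, TLR4 and SUSD5 stayed under 1 FPKM.

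EZR and MSN, linkers that tie CD44 to actin, were abundant. EZR was at 142.0 ± 2.58 FPKM with siNC and 141.4 ± 0.563 with siGFPT2, and MSN at 143.0 ± 42.4 and 142.9 ± 25.7, with MSN low in siNC 3 (94.1 FPKM) and siGFPT2 2 (113) against 156 to 168 in the others. RDX, a further linker, was lower, at 7.67 ± 2.73 FPKM with siNC and 8.70 ± 1.99 with siGFPT2 (log2 0.22, -0.49 to 0.92). NF2, the merlin tumour suppressor that competes with these linkers for CD44, had a log2 fold change of -0.04 (-0.28 to 0.19). The epithelial splicing factors ESRP1 and ESRP2, which favour the variant exons of CD44, were at 30.6 ± 6.43 and 32.1 ± 4.32 FPKM and at 16.1 ± 3.48 and 15.7 ± 1.77. Among the 9 spindle and proliferation genes listed with HMMR, the median log2 fold change was 0.10. BUB1 had 0.17 (-0.20 to 0.55) and TOP2A 0.23 (-0.32 to 0.78). Without siNC 3 they were 0.057 and 0.053, and without siNC 2 they were 0.29 and 0.43.

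**Figure D4:**
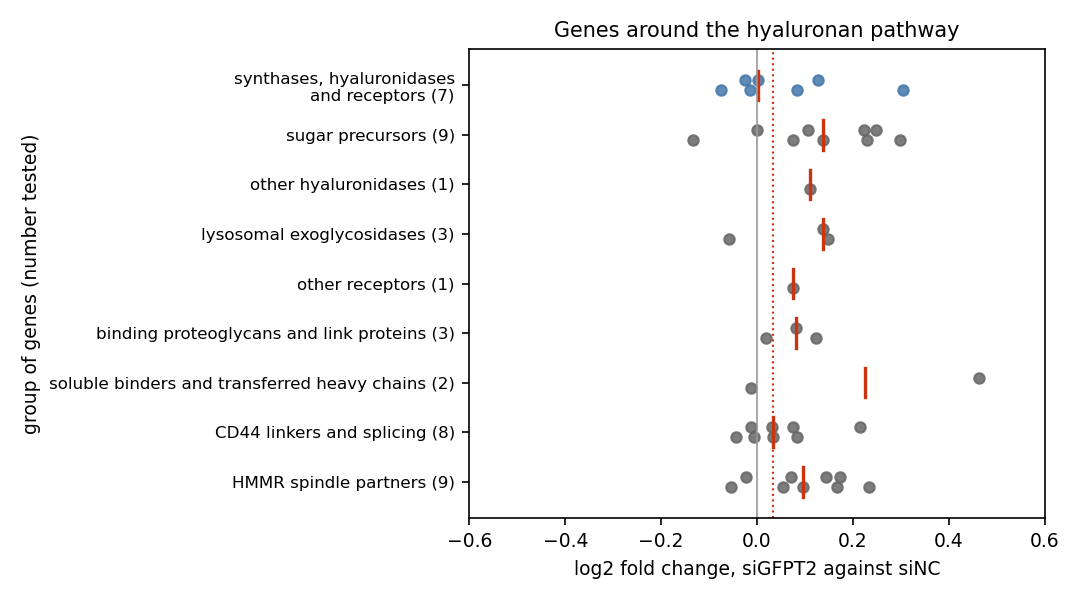
Log2 fold change of siGFPT2 against siNC for the 7 tested hyaluronan genes (blue) and 36 genes around the pathway (grey), by group, with the median of each group as a red line and the median of all tested features (0.03) dotted. The point farthest from 0 is PTX3, at 0.46.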

How the data were processed

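The authors deposited FPKM values per gene for 6 libraries. HISAT2, featureCounts and DESeq2 are named, without versions or roles, in the submitters' processing notes; genome build and annotation: not given in the sources used here. Per the labels' protocols, TRIzol RNA was selected on oligo(dT) beads before paired-end library preparation. The siGFPT2 columns were tied to samples by the numbers in their titles, because the sample descriptions do not match the column names. Symbols came from a table of gene names (60463 of 60605 Ensembl identifiers), positions and exon overlaps from GENCODE 29 (GRCh38), and start regions from RefSeq (GRCh38.p14, 8 of 10 genes matched).

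Comparisons used limma 3.58.1 in R 4.3.3 (lmFit, eBayes with trend) on log2(FPKM + 0.1). Group was the only term, and the threshold on adjusted p was 0.05. The model was tested on simulated counts without the length shift of the real libraries, so that test does not cover the shift. Alternatives changed the pseudocount, filter, scaling, moderation, covariates, input (limma-voom on recovered fragments) and libraries. Fragments were recovered from FPKM steps, within 0.0001 of a whole number, with the GENCODE 29 length where it gave whole fragments (53.9% of features above 0) and otherwise the smallest length that did, which can understate fragments. The smallest length was used for 8 of the 10 genes and differed from GENCODE 29 by at most 124 bases. The genes, the lists and the libraries described as standing apart were chosen with earlier results of these data known. Named genes were the 10 genes, GFPT2, listed pathway genes of at least 1 FPKM by level (fold changes for the 2 smallest p of each group, of which 1 gene is not reported here), the 3 features most like each tested gene, and overlapping genes. The 4 ratios, the named markers and the listed genes named under 1 FPKM were chosen after their values were seen.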

Additional observations from a re-analysis of the deposited data

How the results depend on the processing

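No tested hyaluronan gene and no listed pathway gene passed limma's adjusted threshold under any of the 19 alternatives, and 0 features passed over the whole table, where 84 had an unadjusted p under 0.05. That number was 704 when each library's length slope entered the model, 754 with no filter on low values, 384 with a filter at 0.1 FPKM, 16 with one at 5 FPKM and 59 with limma-voom. It was 50 to 520 with 1 library left out (161 without siNC 2, 520 without siNC 3, 54 without siGFPT2 1, 50 without siGFPT2 3) and 751 without both siNC 3 and siGFPT2 2. Of the 36 pathway genes, 0 to 3 had such a p: 2 with the length slope and 0 with median centring, quantile normalization or a filter at 5 FPKM. Genes under 5 FPKM have no value with a filter at that level. Fold changes stayed on their side of 0 in the alternatives run for HMMR (0.13 to 0.49), HYAL2 (-0.17 to -0.026), HYAL3 (0.0076 to 0.20) and PTX3 (0.29 to 0.58). HAS3 changed sign with median centring (-0.051), quantile normalization (-0.021) and without both siNC 3 and siGFPT2 2 (-0.019). Leaving out both of those libraries also turned HABP4 (0.061), VCAN (-0.0055), CEMIP2 (-0.014) and the ratio of HYAL2 to HYAL1 (0.41), and moved HYAL1 to -0.176. With a single library left out, the log2 fold changes ran from -0.15 to 0.087 for CD44, -0.16 to 0.14 for HAS3, -0.015 to 0.19 for HAS2, -0.11 to 0.047 for HYAL1, -0.24 to 0.32 for CEMIP, -0.19 to 0.32 for CEMIP2, -0.19 to 0.27 for BCAN, -0.34 to 0.46 for VCAN, -0.11 to 0.14 for HABP4, -0.057 to 0.47 for RDX, 0.053 to 0.43 for TOP2A, 0.057 to 0.29 for BUB1, 0.11 to 0.41 for UGP2, 0.17 to 0.34 for GNPNAT1, 0.056 to 0.27 for HEXA, 0.013 to 0.12 for LAYN, -0.095 to -0.011 for NF2 and -0.21 to -0.060 for GFPT2; the HYAL2 to HYAL1 difference ran from -0.75 to 0.36. The cause of these turns was not tested. A replicate block left 0 genes passing and 63 at an unadjusted p under 0.05, with HMMR at 0.30 and 0 pathway genes under 0.05. Deviations of same-numbered libraries from their group means correlated at 0.47, -0.72 and -0.57, and those of siNC 3 and siGFPT2 2 at 0.79. The length shift of these 2 libraries enters the values, which therefore cannot decide whether the numbers pair the samples. Depth limits HAS1 and LYVE1, at 0 to 2 and 0 to 7 fragments.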
